A study of Mus musculus with 12 samples.

Results

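The genes described here are 49 members of the Wnt pathway: 19 Wnt ligands, 12 receptors, 9 secreted antagonists, 3 R-spondins (secreted agonists), 5 genes that the pathway is known to switch on, and Ctnnb1, which encodes β-catenin. They were taken from a list of pathway genes and found on the array by the transcript accession of each probe. All 49 had a probe. A total of 39 members were tested among 15217 genes because their signal stood well above background, by the scanner software's own mark, on 2 or more of the 12 arrays. These were 12 ligands, 11 receptors, 8 antagonists, 2 R-spondins, the 5 target genes and Ctnnb1. The other 10 were not tested. Wnt2, Wnt2b, Wnt3, Wnt3a, Wnt7a, Wnt8a, Fzd10, Dkk1 and Rspo2 were well above background on 0 arrays and Wnt10b on 1.

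Wnt ligands are secreted proteins that bind Frizzled receptors. Together with the co-receptors Lrp5 and Lrp6 this stops the destruction of β-catenin, which then works with the DNA-binding factors Tcf7 and Lef1 to switch on target genes such as Axin2, while other Wnt signals run through Frizzled receptors without β-catenin. Secreted frizzled-related proteins and Wif1 bind the ligands themselves, Dickkopf proteins act on the Lrp co-receptors, and R-spondins keep Frizzled receptors at the cell surface. In podocytes, whose foot processes cover the capillaries of the glomerulus, the pathway is known mainly for its activity during injury.

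Every sample carried floxed alleles of the forkhead factor genes Foxc1 and Foxc2 and an inducible Cre recombinase that tamoxifen activates. The promoter that drives the Cre is not given in the labels. The 6 groups held 2 samples each. Glomeruli, the capillary tufts that filter blood in the kidney, were isolated from control mice given no agent and, on day 7, from mice that had received tamoxifen injections on 3 days when 8 weeks old. Podocytes grown out of glomeruli of adult mice were kept as mock cultures or treated with the active form of tamoxifen for 4 or 7 days. Treated samples had both the drug and the recombination it caused, and the comparisons measure both together. The second floxed gene carries a different number in each sample's genotype label, so the series title, which names Foxc2, was followed. Glomerular labels name separate mice, but culture labels do not say whether numbered samples were separate cultures, so p-values measure the spread between these samples, which may be technical.

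Levels are log2 signals relative to the 75th percentile of the same array, so that 0 marks that percentile, and a level is compared only with other levels of the same probe. The 75th percentile was 505 to 760 signal units, and the share of spots well above background was 57.9% to 63.4%. The 3 slides held the glomeruli, the day 4 cultures and the day 7 cultures, so each tamoxifen comparison lies within a slide, whereas slide cannot be told apart from group when cultures are compared with glomeruli or day 7 with day 4. Foxc2 checked the labels: it fell by 2.82 in glomeruli (limma adjusted p = 0.0367) and was not well above background in any treated culture. Foxc1 read lower on every treated array than on its controls without passing the threshold. With 2 arrays against 2, an exact two-sided permutation test cannot give a p under 0.333, so adjusted p-values are those of limma fitted over all genes and all 12 arrays, and a gene was called at an adjusted p under 0.05.

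Of the 39 members tested, 0 were called in tamoxifen-treated against control glomeruli, where limma called 2.64% of all genes (1.76% higher and 0.881% lower). There 5 of the 39 had an unadjusted p under 0.05, a smaller share than the 18.3% of all genes. In cultures 1 member was called at day 4 and 1 at day 7, and both calls were Wnt9a, against 0.21% (0.092% higher and 0.118% lower) and 0.979% (0.453% higher and 0.526% lower) of all genes. Members with an unadjusted p under 0.05 were 12 of 39 and 11 of 39, larger shares than the 11% and 12.1% of all genes. Whether these shares differ was not tested. Mock cultures differed from control glomeruli far more widely. There 24 of the 39 members were called, 16 higher and 8 lower in culture, which is 61.5% of the members beside 63.7% of all genes (37.8% higher and 25.9% lower), and 67.4% of all genes had an unadjusted p under 0.05. The share of members called in that comparison was thus near the background. Between mock cultures at day 7 and day 4, 0 members were called by limma, 1 had an unadjusted p under 0.05 (6.49% of all genes), and 0.0329% of all genes were called (0.0263% higher and 0.00657% lower). Wnt9a and Fzd3 were called in the test of whether the glomerular response to tamoxifen differed from the mean response of the cultures. There 1.09% of all genes were called (0.618% higher and 0.473% lower). An unadjusted p under 0.05 was found for 13 of 39 members, a larger share than the 16.9% of all genes, again without a test. The corresponding test of day 7 against day 4 responses called 0% of all genes and 0 members, of which 0 had an unadjusted p under 0.05.

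The median difference over the members was -0.12 in glomeruli (all genes -0.05), 0.24 at day 4 (0.02) and 0.19 at day 7 (0.00). Treated arrays lay wholly above the controls for 5 members in glomeruli (20% of all genes) and wholly below for 12 (27.8%). At day 4 the arrays did not overlap for 19 members that read higher (29% of all genes) and 11 that read lower (21.4%), and at day 7 for 13 higher (22.1%) and 8 lower (19.1%). Day 4 and day 7 differences had the same sign for 33 of the 39 members, or 84.6%, against 80.2% of all genes. For 18 members (46.2%) both culture differences had one sign and the glomerular difference the other, against 32.7% of all genes; these counts are descriptions without a test. Mock culture arrays lay wholly above control glomeruli for 16 members (42.2% of all genes) and wholly below for 10 (29.2%).

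Markers of cell types moved with the comparison of mock cultures and glomeruli. The 10 endothelial markers had summed signals, in multiples of the array's 75th percentile, of 209 to 247 in control glomeruli and 6.71 to 7.29 in day 4 mock cultures, where Tek and Tie1 were not well above background. The 8 proximal tubule markers fell from 87.8 to 93.6 in control glomeruli to below 0.54 in mock cultures. All 10 podocyte markers were well above background in every group, with sums of 449 to 595 in control glomeruli and 81.8 to 88.4 in day 4 mock cultures. The 10 mesangial and mural markers had sums of 44.4 to 87.3 in control glomeruli and 436 to 502 in day 7 mock cultures, although 6 of the 10 were called lower and 2 higher. The 6 fibroblast markers tested had sums of 16.8 to 34.5 in control glomeruli, 127 to 141 in day 4 and 70.8 to 148 in day 7 mock cultures. The 6 parietal epithelium markers had sums of 5.3 to 7.67 in control glomeruli and 24.5 to 29.4 in day 4 mock cultures. The part of these markers in the Wnt values was not tested, and in these bulk samples fewer cells of a type and less RNA per cell cannot be told apart.

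Markers also moved with tamoxifen in glomeruli. The sums of the 8 proximal tubule markers were 87.8 to 93.6 in controls and 180 to 289 in treated mice, with 8 of 8 higher and 1 called. Red cell markers had sums of 39.2 to 87.4 in controls and 0.785 to 7.30 in treated mice, where Alas2 was not well above background, and 4 of 5 were called lower. Podocyte sums were 449 to 595 in controls and 293 to 415 in treated mice, with 9 of 10 lower and 1 called. Leukocyte sums were 11.01 to 11.6 and 5.47 to 7.42 (7 of 8 lower, Ms4a1 called), and endothelial sums 209 to 247 and 172 to 180 (9 of 10 lower, 0 called). Fibroblast sums were 16.8 to 34.5 in controls and 37.7 to 51 in treated mice, without a call, and Thy1 alone read lower. Acta2, of 10 mesangial and mural markers of which 9 read higher, was called higher, as was Slc12a1, of 11 distal markers of which 8 read higher. Their part in the glomerular values of Wnt4, Wnt8b and Frzb was not tested.

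In cultures the sums of the 6 parietal epithelium markers were 24.5 to 29.4 in mock and 45.8 to 46 in treated samples at day 4. At day 7 they were 20.2 to 30.1 and 44.3 to 44.8. The sums did not overlap on either day, although only 4 and 3 of the 6 read higher and 1 was called lower at day 7. The mean log2 level of these markers did overlap at day 7 (-0.64 to -0.47 in mock, -0.63 to -0.53 in treated). The sums of the 10 podocyte markers overlapped, at 81.8 to 88.4 in mock and 88 to 89.9 in treated samples at day 4. At day 7 they were 83.5 to 84.1 and 81.5 to 96.2. The mean log2 level of the podocyte markers was lower, at 0.86 to 1.08 in mock and 0.53 to 0.64 in treated samples at day 4. At day 7 it was 0.75 to 0.82 and 0.28 to 0.63, and 0 of the 10 were called on either day. The sums of the 10 mesangial and mural markers were 442 to 459 in mock and 533 to 568 in treated samples at day 4. At day 7 they were 436 to 502 and 516.4 to 516.5, although their mean log2 levels overlapped on both days. Fibroblast sums were higher at day 4 (127 to 141 and 145 to 189) and endothelial sums lower (6.71 to 7.29 and 5.71 to 6.47), and both overlapped at day 7. The part of these markers in the culture values of Wnt9a and the other members was not tested.

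**Figure D1:**
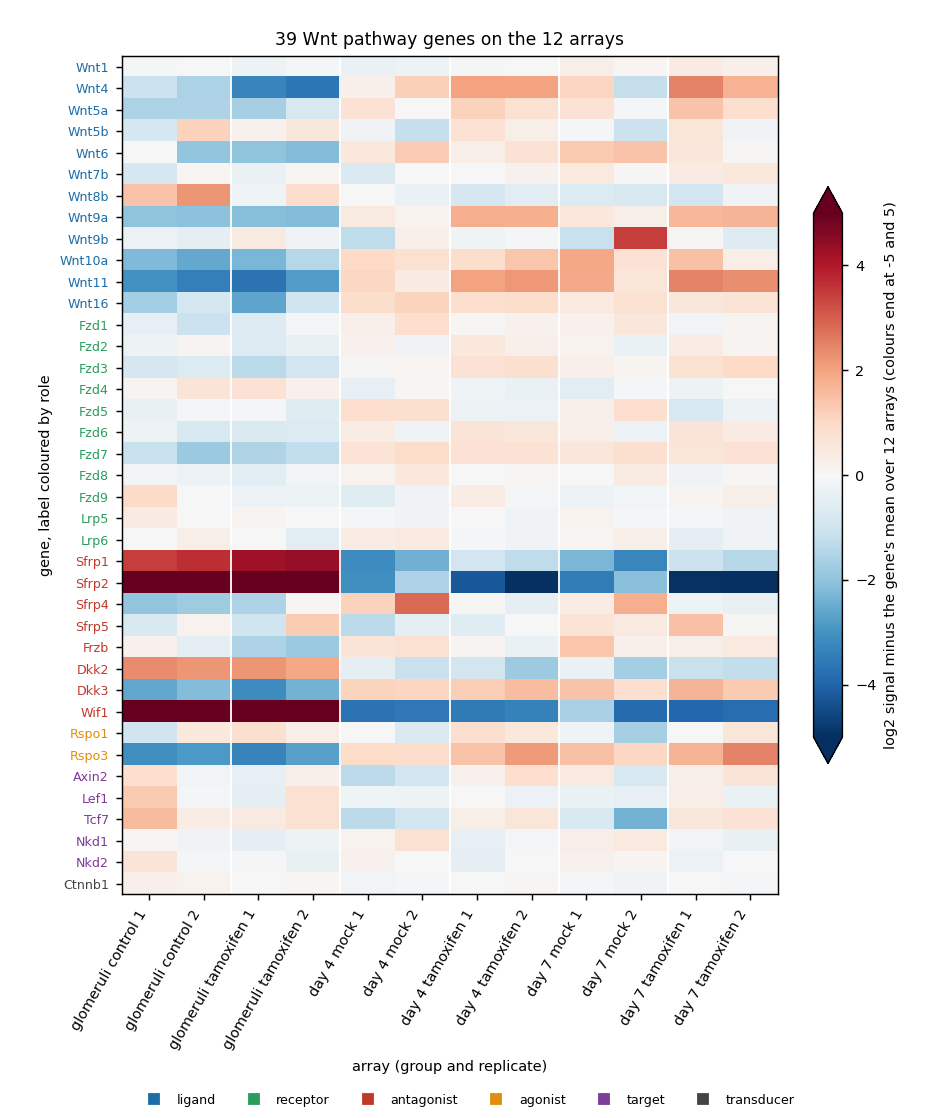
Levels of the 39 tested Wnt pathway genes on the 12 arrays, each as log2 signal minus the gene's own mean over the arrays (colour; the scale ends at -5 and 5), with gene labels coloured by role and white lines between groups. The widest colour changes lie between glomeruli and cultures, with Sfrp2 and Wif1 high in all 4 glomerular arrays and Wnt11 and Rspo3 high in all 8 culture arrays.

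Wnt9a was the one ligand, and the one member of the 39, called after tamoxifen. Wnt9a, known as a ligand in joint and skeletal development, read -0.53 and -0.79 on the mock arrays against 0.84 and 0.82 on the treated arrays of day 4. At day 7 it read -0.43 and -0.69 on mock against 0.68 and 0.73 on treated arrays. All 4 treated cultures were above all 4 mock cultures. Wnt9a rose by 1.49 at day 4 (SE 0.13, n = 2 against 2, a 2.81-fold difference, limma adjusted p = 0.00581) and by 1.26 at day 7 (SE 0.13, 2.4-fold, limma adjusted p = 0.0101). The day 7 response minus the day 4 response was -0.23 (95% interval -0.64 to 0.18), which did not pass the test. In glomeruli the same probe read -2.99 and -3.01 in controls and -3.12 and -3.14 in treated mice, a difference of -0.13 (limma adjusted p = 0.651). The glomerular response was lower than the mean culture response by 1.51 (SE 0.15, limma adjusted p = 0.0190). Mock cultures themselves stood 2.39 above control glomeruli (limma adjusted p = 1.15e-06).

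The Wnt9a calls rest on few arrays. At day 4 the call was lost without treated replicate 1 or without treated replicate 2 (limma adjusted p = 0.0628 each), and when only the 4 day 4 arrays were fitted (0.172, with 0 genes called in all). At day 7 it was lost without mock replicate 2 (0.0734), treated replicate 1 (0.0709) or treated replicate 2 (0.0693), and with only the day 7 arrays (0.266). The size moved little, from 1.22 to 1.63 at day 4 and from 1.13 to 1.39 at day 7 over 23 alternatives. The difference between tissues lost its call without control glomeruli replicate 1 (0.0536) or either day 4 treated array (0.0653 and 0.059).

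Wnt9a lies next to Wnt3a on mouse chromosome 11, with 0 protein-coding genes between them in the RefSeq annotation of GRCm38.p6. Wnt3a was well above background on 0 arrays. The other neighbouring ligand pairs are Wnt6 and Wnt10a, which were both tested, Wnt9b and Wnt3, and Wnt1 and Wnt10b, of which Wnt3 and Wnt10b were not.

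Wnt4, which drives the formation of the nephron in the embryo, had the widest difference of the ligands in glomeruli and at day 7, although neither was called. In glomeruli it read -2.06 and -2.55 in controls and -4.27 and -4.58 in treated mice. In cultures it read -0.71 and 0.21 on the mock arrays against 1.02 and 1.03 on the treated arrays of day 4, and 0.11 and -2.18 on the mock arrays against 1.51 and 0.77 on the treated arrays of day 7. Treated arrays were thus below the controls in glomeruli and above them in both sets of cultures, without overlap. The differences were -2.13 in glomeruli (limma adjusted p = 0.142), 1.28 at day 4 (0.564) and 2.17 at day 7 (0.221). The glomerular response was -3.85 relative to the mean culture response (SE 0.82, limma adjusted p = 0.0718) and did not pass. Mock replicate 2 at day 7 stood apart. Without it the day 7 difference was 1.03, and without mock replicate 1 it was 3.32, so its size depends on that array.

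Wnt8b, a ligand known from the forebrain, read -3.85 and -3.07 on control arrays against -5.48 and -4.39 on treated glomerular arrays, the latter well above background on both arrays. Its difference of -1.47 did not pass (limma adjusted p = 0.103), although without treated glomeruli replicate 2 it did, at -2.02 (0.0473), as it did with the replicate block shared by all cultures (0.0347). Wnt11, a ligand of the branching ureteric tips, read -0.88 and -1.52 on the mock arrays against 0.09 and 0.26 on the treated arrays of day 4. Its day 4 difference was 1.37 (limma adjusted p = 0.305) and its day 7 difference 1.17 (0.339). In both cases the treated arrays were above the mock arrays, and the call was not reached. Wnt9b, the ureteric bud ligand that induces nephrons, read -5.82 and -1.23 on the mock arrays against -4.66 and -5.36 on the treated arrays of day 7. A single mock array was high there, the one mock array of that day well above background, and the difference of -1.48 (limma adjusted p = 0.723) turned to 0.81 without that array, mock replicate 2, and reached -3.78 (0.0395) without mock replicate 1.

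Of the 12 ligands tested, 7 rose and 1 fell in mock cultures against control glomeruli, or 66.7% beside 63.7% of all genes. Wnt11 read -4.95 and -5.32 in control glomeruli and -0.03 and -1.31 in day 7 mock cultures, all 4 mock arrays being above both glomerular arrays, and rose by 4.19 (SE 0.39, limma adjusted p = 4.68e-05). Wnt10a, a ligand of skin appendages and teeth, read -5.10 and -5.47 in control glomeruli, -1.89 and -2.16 in day 4 and -0.97 and -2.18 in day 7 mock cultures. It rose by 3.48 (limma adjusted p = 2.37e-04), while its neighbour Wnt6 rose by 2.14 (0.00518) from -5.45 and -7.38 in control glomeruli, of which 1 array was well above background, to -4.87 and -4.14 at day 4 and -4.12 and -3.99 at day 7. Without control glomeruli replicate 2 the Wnt6 rise was 1.17, and with normexp the difference was 0.33 and not called (0.35).

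Wnt16 read -4.19 and -3.35 in control glomeruli, -1.60 and -1.36 in day 4 and -1.99 and -1.72 in day 7 mock cultures, and rose by 2.11 (limma adjusted p = 0.00259). Wnt5a, the best known ligand of signalling without β-catenin, read -2.84 and -2.79 in control glomeruli, -0.52 and -1.28 at day 4 and -0.52 and -1.33 at day 7. Its rise was 1.90 (limma adjusted p = 0.00196), again with no overlap. Wnt4 rose by 1.66 (limma adjusted p = 0.0362) with arrays that overlapped, and lost the call in 7 of 12 fits that left out an array, among them those without either control glomerulus array (0.0823 and 0.17), either treated glomerulus array (0.0514 each), day 4 mock replicate 2 (0.0894) or either day 4 treated array (0.0525 each). The ligand that fell was Wnt8b, from -3.85 and -3.07 in control glomeruli to -5.32 and -5.59 at day 4 and -5.98 and -6.10 at day 7, where 1 of 4 mock arrays was well above background (difference -2.28, limma adjusted p = 7.30e-04). With normexp the Wnt8b difference was -0.73 (0.0505) and that of Wnt4 1.11 (0.0569), and neither was called.

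The remaining ligands were not called in any comparison. Wnt1 stayed within -2.12 to -1.40 on all arrays, Wnt5b had a mock-to-glomerulus difference of -0.77 (95% interval -2.11 to 0.57), and Wnt7b was well above background only in the day 7 cultures. Wnt1 was also the member with an unadjusted p under 0.05 between mock cultures at day 7 and day 4, with a difference of 0.50 (limma adjusted p = 0.233).

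Promoter windows from RefSeq (GRCm38.p6, 250 bases before to 50 after a start site) were found for 34 of the 49 members, 42 windows in all. They were searched on both strands for the Tcf/Lef letters CTTTGAT or CTTTGTT and the forkhead letters TGTTTAC or TGTTTAT, which can overlap each other in one stretch but do not in these windows. The Tcf/Lef letters were in 5 of the 42 windows and in 9.33% of 32851 promoter windows of all genes, and the forkhead letters in 3 and in 7.97%. Windows are shown for Wnt9a, the ligand called after tamoxifen, for Wnt11 and Fzd7, a ligand and a receptor that rose in culture on the probes tested, and for Wif1, the antagonist that fell furthest below detection there. Capitals mark a match, which for Wnt11 and Fzd7 is printed as its reverse complement. The matches start at position -51 in Wnt11, -130 in Fzd7 and -234 in Wif1 relative to the start site, and the Wnt9a window holds neither motif. All windows shown except that of Wnt9a hold a match, so they do not stand for the 42 windows. The other Tcf/Lef matches are in Wnt3 and Dkk1, which were not tested, and in Wnt5b, which was not called. The other forkhead matches are in Lef1 and Tcf7. Whether a match goes with a rise or a fall was not tested. A match is a string of letters, and no binding was measured.
Wnt9a, chr11:59306680-59306979, plus strand: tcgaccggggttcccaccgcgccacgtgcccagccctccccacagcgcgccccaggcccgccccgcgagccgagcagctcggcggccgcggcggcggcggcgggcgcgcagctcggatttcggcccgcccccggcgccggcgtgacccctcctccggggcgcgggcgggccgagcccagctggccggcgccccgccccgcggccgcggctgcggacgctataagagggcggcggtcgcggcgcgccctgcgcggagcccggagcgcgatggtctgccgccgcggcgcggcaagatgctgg
Wnt11, chr7:98834862-98835161, plus strand: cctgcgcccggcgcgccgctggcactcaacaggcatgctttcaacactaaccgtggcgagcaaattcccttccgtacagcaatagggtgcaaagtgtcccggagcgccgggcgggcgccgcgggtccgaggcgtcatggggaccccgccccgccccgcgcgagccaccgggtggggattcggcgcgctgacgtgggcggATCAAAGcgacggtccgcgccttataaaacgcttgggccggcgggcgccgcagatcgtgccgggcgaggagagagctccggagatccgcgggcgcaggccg
Fzd7, chr1:59481897-59482196, plus strand: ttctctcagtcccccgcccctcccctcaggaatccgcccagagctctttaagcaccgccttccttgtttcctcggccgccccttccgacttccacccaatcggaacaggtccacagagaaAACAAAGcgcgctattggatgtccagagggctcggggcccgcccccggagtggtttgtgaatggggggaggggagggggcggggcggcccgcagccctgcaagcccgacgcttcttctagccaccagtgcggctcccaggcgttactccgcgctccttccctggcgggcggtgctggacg
Wif1, chr10:121033754-121034053, plus strand: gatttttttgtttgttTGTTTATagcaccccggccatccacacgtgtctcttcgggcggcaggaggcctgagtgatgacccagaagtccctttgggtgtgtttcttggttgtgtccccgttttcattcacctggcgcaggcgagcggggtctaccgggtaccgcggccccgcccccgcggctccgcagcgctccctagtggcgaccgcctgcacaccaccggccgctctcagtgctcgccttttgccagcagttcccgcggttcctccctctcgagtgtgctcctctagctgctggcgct

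**Figure D2:**
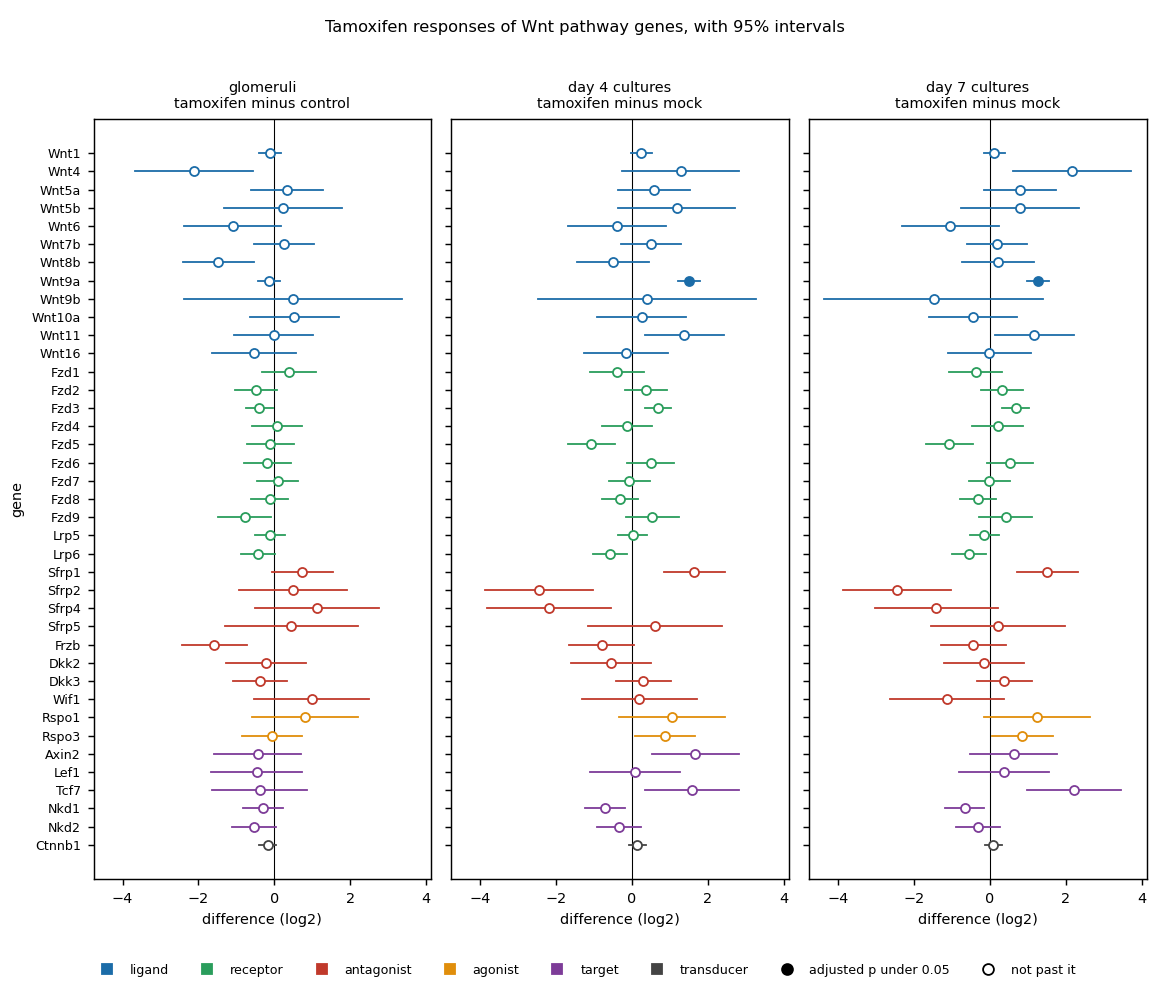
Tamoxifen minus control (log2) with 95% intervals from limma for the 39 genes, in glomeruli, day 4 and day 7 cultures, coloured by role; filled points passed an adjusted p under 0.05. Wnt9a at day 4 (1.49) and day 7 (1.26) gives the only filled points, and in glomeruli all points are open.

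Receptors gave no tamoxifen call. All 11 tested receptors except Fzd9, which was on 11, were well above background on all 12 arrays, and 0 of 11 passed the test in any tamoxifen comparison. Limma called 2.64% of all genes in glomeruli, 0.21% at day 4 and 0.979% at day 7, so 0 of 11 is near the background. With a replicate block shared by all cultures, an alternative added after seeing the data, Fzd2 in glomeruli (limma adjusted p = 0.0403) and Fzd3 at day 7 (0.0398) passed. Fzd3, a Frizzled of axon guidance and planar cell polarity, read -0.21 and -0.19 on the mock arrays against 0.44 and 0.53 on the treated arrays of day 4, while the day 7 values were -0.03 and -0.13 (mock) against 0.49 and 0.71 (treated). In glomeruli it read -1.11 and -0.97 in controls and -1.64 and -1.23 in treated mice. Treated arrays were above mock arrays in culture and below controls in glomeruli, without overlap. The differences were 0.68 (limma adjusted p = 0.132), 0.68 (0.105) and -0.40 (0.222), none of them called. The glomerular response was lower than the mean culture response by 1.08 (SE 0.19, limma adjusted p = 0.0463). Leaving out an array ended the Fzd3 call in 11 of 12 cases, with adjusted p up to 0.109, and the call remained only without treated glomeruli replicate 2 (-1.28, 0.0199).

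On the probe tested, Fzd5 was the receptor with the largest difference in culture. It read -2.27 and -2.32 on the mock arrays against -3.35 and -3.38 on the treated arrays of day 4, while the day 7 values were -2.86 and -2.26 (mock) against -3.90 and -3.35 (treated). All treated arrays were below all mock arrays. The differences of -1.07 (limma adjusted p = 0.185) and -1.07 (0.143) did not pass, and with another background model (normexp) the day 4 value was 0.16. A second Fzd5 probe, well above background on all 12 arrays, gave -0.38 at day 4 and -0.78 at day 7. The co-receptor Lrp6 read 3.40 and 3.53 on the mock arrays against 2.93 and 2.84 on the treated arrays of day 4, lower on both treated arrays (difference -0.58, limma adjusted p = 0.315), with -0.54 at day 7 (0.296) and -0.42 in glomeruli (0.303). Its partner Lrp5 had differences of -0.11, 0.01 and -0.14 in the same 3 comparisons.

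In glomeruli the receptors with the widest differences were Fzd9 and Fzd2. Fzd9 read -3.47 and -4.39 in controls and -4.72 and -4.70 in treated mice, and Fzd2 read 2.68 and 3.05 (control) against 2.22 and 2.53 (treated). Both were lower on each treated array, by differences of -0.78 (limma adjusted p = 0.226) and -0.49 (0.331) that did not pass. Over the 3 tamoxifen comparisons Fzd4, the receptor best known from vessel growth, gave 0.08, -0.13 and 0.20, and Fzd6, Fzd8, Fzd1 and Fzd7 gave differences between -0.40 and 0.53.

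Between mock cultures and control glomeruli 5 of 11 receptors rose and 1 fell, or 54.5% beside 63.7% of all genes. Fzd7, a Frizzled of progenitor cells, read -2.35 and -3.09 in control glomeruli, -0.56 and -0.33 in day 4 and -0.70 and -0.46 in day 7 mock cultures, and rose by 2.21 (SE 0.20, limma adjusted p = 4.43e-05). A second Fzd7 probe, well above background on all 12 arrays, differed by only 0.32, so the size of the Fzd7 rise depends on the probe. Fzd1 rose by 1.20 (0.45 and -0.21 in control glomeruli, 1.06 to 1.70 on the 4 mock arrays; limma adjusted p = 0.00455), Fzd3 by 0.90 (5.57e-04) and Fzd5 by 0.90 from -3.48 and -3.19 (0.00993). For these 4 receptors every mock array was above both control glomeruli, as was so for 42.2% of all genes. The Fzd5 call was lost without control glomeruli replicate 1 (0.0768) and with normexp (0.0634).

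Fzd8 rose by 0.52 (limma adjusted p = 0.0337), from -1.63 and -1.78 in control glomeruli to -1.30 and -0.95 at day 4 and -1.46 and -1.02 at day 7. Its call was lost in 6 of 12 fits, without either control glomerulus array (0.0762 and 0.155), mock replicate 2 of day 4 (0.0862) or day 7 (0.0792), or either day 4 treated array (0.051 each). Fzd9 fell by 0.80 (limma adjusted p = 0.0278), from -3.47 and -4.39 to -5.04 and -4.60 at day 4 and -4.69 and -4.58 at day 7. The Fzd9 call was lost in 8 of 23 alternatives. Among these were the fit without control glomeruli replicate 1, where the difference was -0.33, and those without mock replicate 1 of day 4 or day 7. With normexp the difference was -0.26 (limma adjusted p = 0.456), also without a call. The co-receptors did not pass, with -0.23 for Lrp5 (95% interval -0.56 to 0.11) and 0.17 for Lrp6 (-0.22 to 0.56).

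The 3 largest differences between mock cultures and control glomeruli were those of secreted antagonists. Sfrp2, a decoy that binds Wnt ligands, read 5.26 and 4.65 in control glomeruli, -5.38 and -3.89 in day 4 and -5.81 and -4.44 in day 7 mock cultures, where 3 of 4 arrays were well above background. It fell by 9.84 (SE 0.53, n = 4 against 2, a 914-fold difference, limma adjusted p = 2.87e-06). Over 23 alternatives the Sfrp2 difference ranged from -10.2 to -7.9 and the call was kept, so the size of the fold depends on the processing. Wif1, an inhibitor that binds Wnt ligands directly, read 1.61 and 2.88 in control glomeruli and was not well above background on any culture array, where its signals ranged from -8.01 to -5.72. It was at least 247-fold lower in mock cultures (limma adjusted p = 4.56e-06). For such a bound, each dim array is given the probe's own signal or the lowest signal that was well above background there, whichever is higher, and the bright group's mean is divided by the result.

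Sfrp1, another decoy, read -0.93 and -0.70 in control glomeruli and was not well above background in any mock culture, so it was at least 29.7-fold lower there (limma adjusted p = 1.42e-06). Dkk2, which acts on Lrp6, fell by 3.19 from 3.21 and 3.05 in control glomeruli to 0.35 and -0.27 at day 4 and 0.50 and -0.86 at day 7 (limma adjusted p = 2.18e-04). These 4 antagonists were lower on every mock culture array than on both control glomeruli, as were 29.2% of all genes. Limma called 25.9% of all genes lower and 37.8% higher in this comparison. The other called members went the opposite way. Dkk3, a Dickkopf relative, read 0.56 and 0.98 in control glomeruli, 4.26 and 4.21 at day 4 and 4.57 and 3.97 at day 7, and rose by 3.49 (limma adjusted p = 1.85e-05). Sfrp4 was not well above background in any glomerulus and, well above background on 3 of 4 mock arrays, read -5.01 and -3.33 at day 4 and -5.78 and -4.34 at day 7, at least 2.63-fold higher in mock cultures (limma adjusted p = 0.00156), although with normexp the difference was 0.68 and not called (0.108). Frzb, a decoy of the same family, read -2.55 and -2.46 at day 4 and -1.82 and -2.95 at day 7 in mock cultures and -2.99 and -3.68 in control glomeruli, and rose by 0.89 (limma adjusted p = 0.0409). The Frzb call was lost in 10 of 12 fits, being kept only without control glomeruli replicate 1 or day 7 mock replicate 2, and without control glomeruli replicate 2 the rise was 0.54 (0.276). With normexp it was 0.61 (0.118).

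After tamoxifen 0 of 8 antagonists were called in any comparison, which is near the 2.64%, 0.21% and 0.979% of all genes called in glomeruli, at day 4 and at day 7. Of these, Frzb had the lowest adjusted p in glomeruli, with -2.99 and -3.68 in controls and -4.77 and -5.06 in treated mice. Both treated arrays were lower, and the difference of -1.58 (SE 0.37) had a limma adjusted p of 0.0680, or 0.0459 without day 7 mock replicate 1 and likewise without day 7 mock replicate 2. With the replicate block shared by all cultures it was 0.0490. In cultures the Frzb differences were -0.80 (0.499) and -0.43 (0.734). Wif1 read 1.61 and 2.88 on control arrays against 3.11 and 3.35 on treated glomerular arrays, higher on both treated arrays (difference 0.98, limma adjusted p = 0.481). Sfrp2 read 5.26 and 4.65 (control) against 5.34 and 5.56 (treated) (difference 0.49, 0.737).

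In treated cultures Sfrp2 was not well above background on any array, where it gave -6.59 and -7.58 on the day 4 and -7.30 and -7.86 on the day 7 arrays. Its measured values lay below both mock arrays each time, at least 1.88-fold lower at day 4 (limma adjusted p = 0.185) and at least 1.65-fold at day 7 (0.140), without a call. Sfrp4 was likewise dim in all treated cultures (at least 2.6-fold and 1.72-fold lower, 0.297 and 0.488). Sfrp1 went the other way, though near background. It was not well above background in mock cultures and read -5.37 and -5.68 at day 4 and -5.48 and -5.82 at day 7 in treated ones. On each day 1 of 2 treated arrays was well above background. As a bound, Sfrp1 was at least 1.1-fold higher at day 4 (limma adjusted p = 0.115) and at least 1.07-fold at day 7 (0.110), without a call. Dkk2, Dkk3 and Sfrp5 differed by at most 0.60 in size in each tamoxifen comparison.

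R-spondins bind Lgr receptors and keep Frizzled receptors at the surface. Rspo3 read -3.20 and -3.03 in control glomeruli, 0.75 and 0.74 in day 4 and 1.30 and 0.86 in day 7 mock cultures, and rose by 4.03 in mock cultures (SE 0.30, limma adjusted p = 1.44e-05), with no overlap. In treated cultures it read 1.26 and 1.96 at day 4 and 1.54 and 2.34 at day 7. Both treated arrays were above both mock arrays at each time, with differences of 0.86 (limma adjusted p = 0.411) and 0.86 (0.364) that were not called. Rspo1 read 0.27 and -0.42 on the mock arrays against 1.13 and 0.85 on the treated arrays of day 4, while the day 7 values were 0.12 and -1.36 (mock) against 0.33 and 0.91 (treated). It too was higher on the treated arrays, by 1.06 (0.601) and 1.24 (0.476), without a call. In glomeruli the R-spondin differences were 0.81 for Rspo1 and -0.07 for Rspo3, with overlapping arrays.

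**Figure D3:**
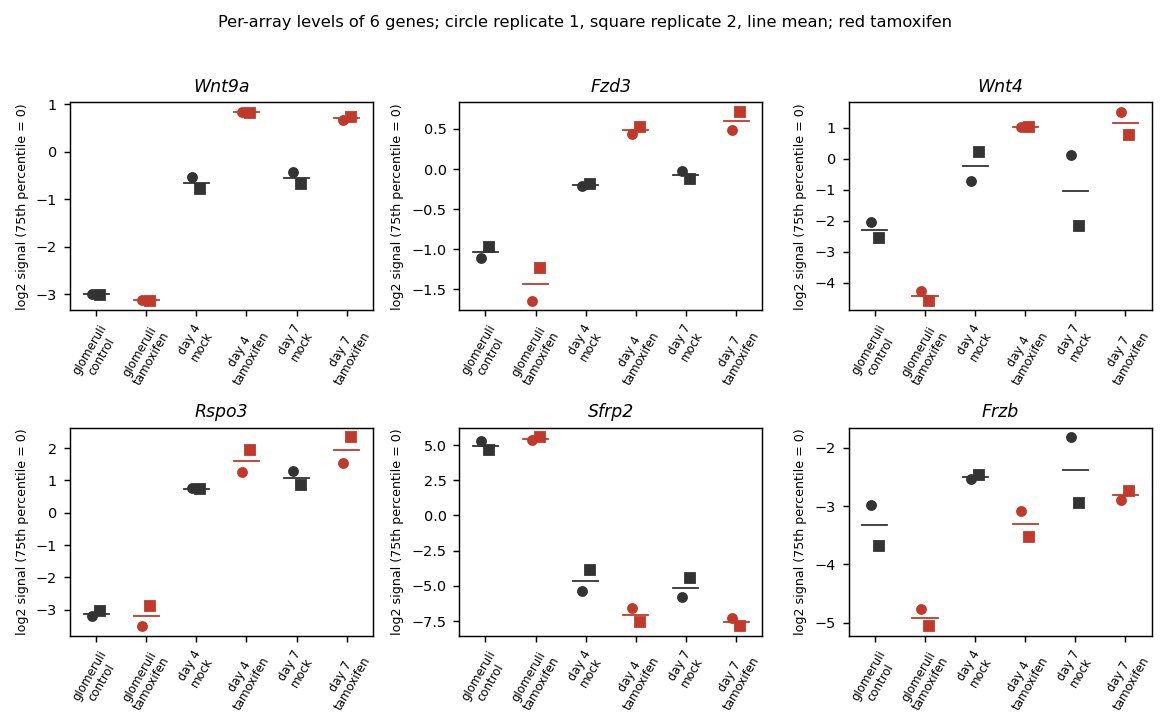
Log2 signal (75th percentile of the array = 0) of Wnt9a, Fzd3, Wnt4, Rspo3, Sfrp2 and Frzb on every array by group, with replicate 1 as circles, replicate 2 as squares, group means as lines and tamoxifen-treated groups in red. Wnt9a sits near -3 in all 4 glomerular arrays and between 0.68 and 0.84 in the 4 treated cultures, and Sfrp2 is at 4.65 or more in every glomerular array and at -3.89 or less in every culture.

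All 5 target genes and Ctnnb1 had lower means in treated than in control glomeruli, where 8669 of all 15217 genes also read lower. Of these 6, 0 were called (2.64% of all genes), nor did any have an unadjusted p under 0.05 (18.3% of all genes). Of 11 further target genes in the second list, 6 read higher and 5 lower and 0 were called, Sp5 among them at 1.56 (limma adjusted p = 0.0540). Nkd2, a feedback inhibitor that binds Dishevelled, read -0.93 and -1.63 in controls and -1.66 and -1.96 in treated mice (difference -0.53, limma adjusted p = 0.314). Lef1 read -2.24 and -3.65 (control) against -4.03 and -2.79 (treated) (difference -0.47, 0.695). The arrays of Lef1 overlapped, and its difference turned to 0.24 without control replicate 1 and to 0.15 without treated replicate 1. Ctnnb1 read 3.23 and 3.18 in controls and 2.98 and 3.07 in treated mice, a difference of -0.18 (0.374).

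In cultures the targets did not move together. Nkd1, the relative of Nkd2, read 0.52 and 1.11 on the mock arrays against -0.08 and 0.29 on the treated arrays of day 4, while the day 7 values were 0.67 and 0.82 (mock) against 0.21 and -0.05 (treated). All treated arrays were below the mock arrays, with differences of -0.72 (limma adjusted p = 0.286) and -0.66 (0.269). Nkd2 gave -0.35 (0.707) and -0.31 (0.701), the first turning to 0.18 with normexp. Tcf7, a DNA-binding partner of β-catenin, was not well above background in any mock culture and read -4.32 and -4.02 in treated cultures at day 4 and -4.07 and -3.90 at day 7, all well above background. On this scale it was at least 2.7-fold higher at day 4 (0.328) and at least 3.09-fold at day 7 (0.128), without a call.

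Axin2, the feedback target most used as a readout of β-catenin signalling, lay near background throughout and was well above it on 5 of 12 arrays. It read -7.06 and -6.72 on the mock arrays against -5.53 and -4.92 on the treated arrays of day 4 and, at day 7, -5.25 and -6.56 (mock) against -5.44 and -5.11 (treated). The day 4 treated arrays, of which 1 was well above background, were higher, at least 1.36-fold (limma adjusted p = 0.259), and the day 7 arrays overlapped (difference 0.63, 0.697, or -0.03 without mock replicate 2). Lef1 differed by 0.09 and 0.38 and Ctnnb1 by 0.14 and 0.09.

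Against control glomeruli, mock cultures had less Tcf7 and Ctnnb1. Tcf7 read -3.04 and -4.25 in control glomeruli and was at least 3.89-fold lower in mock cultures (limma adjusted p = 0.00281), although with normexp the difference was -0.56 and not called (0.1). Ctnnb1 fell by 0.34 (0.00675), from 3.23 and 3.18 to 2.85 and 2.90 at day 4 and 2.88 and 2.81 at day 7. Under median scaling the Ctnnb1 difference was -0.11 and not called (0.361), and with normexp -0.16 (0.423). The other 4 targets were not called, with -1.01 for Axin2 (limma adjusted p = 0.0701), -0.91 for Lef1 (0.108), 0.49 for Nkd1 (0.0572) and -0.15 for Nkd2 (0.570). A second probe of each gave the opposite sign, -0.62 for Nkd1 (well above background on 12 arrays) and 0.92 for Nkd2 (on 6), so neither gene has a settled direction here.

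**Figure D4:**
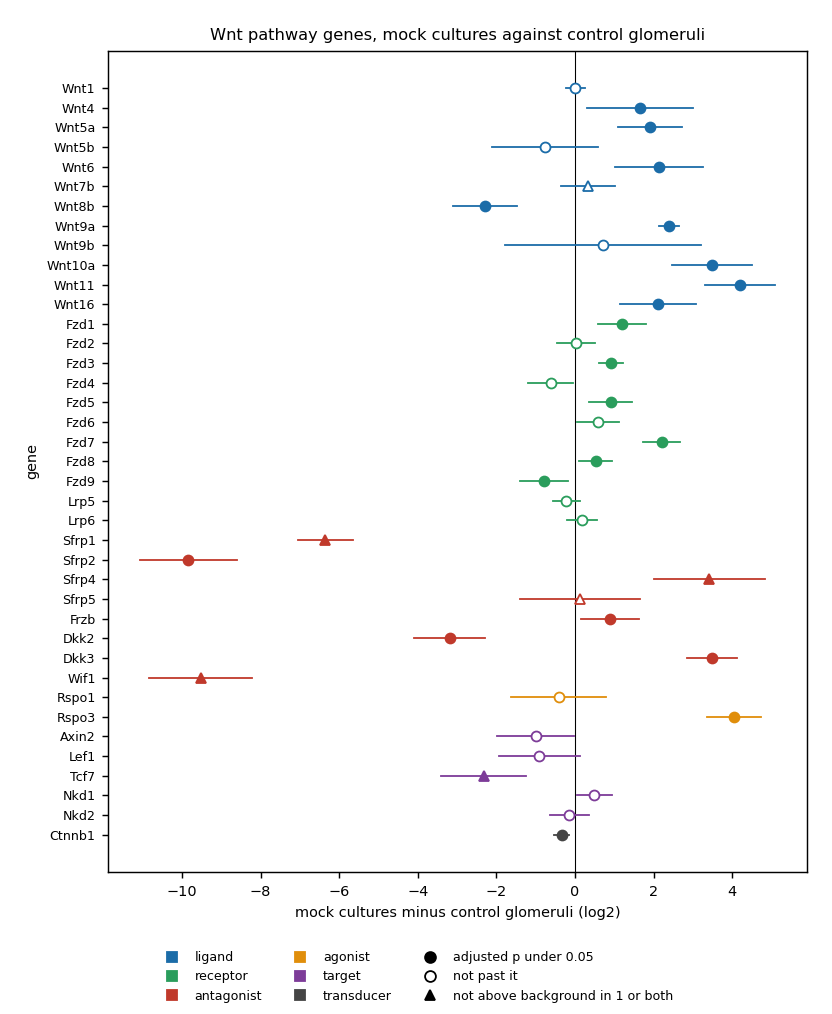
Mock cultures minus control glomeruli (log2) with 95% limma intervals for the 39 genes, coloured by role; filled symbols passed an adjusted p under 0.05, and triangles mark probes not well above background in 1 or both groups. Sfrp2 (-9.84), Wif1 and Sfrp1 lie far to the left, and Wnt11 (4.19) and Rspo3 (4.03) furthest to the right.

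The median of all genes in mock cultures against control glomeruli was 0.18 under the scaling used and 0.41 when arrays were scaled to their medians. With that scaling 18 members were called higher and 6 lower in place of 16 and 8, while 70.4% of all called genes were higher in place of 59.3%. The size of small differences, such as those of Ctnnb1, Fzd8 and Fzd9, thus depends on the scaling, and the Ctnnb1 call was lost under median scaling.

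Further genes of the pathway, 70 outside the 49, were read from a second list, and 65 of them were tested. In treated glomeruli 1 of 65 rose and 0 fell, beside 1.76% and 0.881% of all genes, the riser being Celsr1, a cadherin of planar cell polarity. It read -1.01 and -0.75 in controls and -0.10 and -0.02 in treated mice (difference 0.83, limma adjusted p = 0.0470), a call lost whichever of the 12 arrays was left out (0.0517 to 0.171). At day 4, 0 of 65 were called by limma (0.21% of all genes), while 11 of 65 had an unadjusted p under 0.05 (11% of all genes). At day 7, 0.453% of all genes were called higher and 0.526% lower. There Celsr3, a relative of Celsr1, rose by 1.17 (-5.42 and -5.22 in mock, -3.85 and -4.44 in treated, limma adjusted p = 0.0413). The glypican Gpc3 fell by 3.82 (-0.75 and 0.89 in mock, -3.52 and -3.98 in treated, 0.0344). The Celsr3 call was lost in all 12 fits without an array (0.0506 to 0.183) and the Gpc3 call in 9 of 12 (up to 0.175, without day 7 mock replicate 2).

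Between mock cultures and control glomeruli 46 of the 65 were called, 21 higher and 25 lower, or 70.8% beside 63.7% of all genes (37.8% higher and 25.9% lower). Of 11 target genes on the second list 6 rose and 4 fell. Ccn4, a matrix protein induced by Wnt1, rose by 4.86 (limma adjusted p = 1.01e-04) and the growth regulator Myc by 3.42 (3.66e-05), while the cyclin gene Ccnd1, named after its values were seen, fell by 2.33 (2.84e-05). The glypicans Gpc6 and Gpc4 rose by 3.41 (5.43e-04) and 2.77 (3.09e-06). Among falls measured in both groups that of Prickle1, a planar cell polarity gene, was the largest, at 3.02 (3.10e-06). The antagonist Sostdc1, the target Sp5, the antagonist Sost and the Dishevelled partner Dact1 were well above background on both control glomeruli and on no mock array. Their falls are known only as bounds, at least 42.4-fold, 4.98-fold, 3.68-fold and 5.24-fold, and have no order. With normexp the differences of Sp5 and Sost were -0.75 each and not called (0.0583 and 0.112).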

How the data were processed

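The data are 12 one-colour Agilent arrays, 2 in each of 6 groups. Feature Extraction 11.5.1.1 is named in the submitters' processing notes. The spot intensities used are the processed signals as deposited, background-corrected by the scanner software per the file headers. A value table deposited by the authors gives log2 values of these arrays that, set against the scanner values, lie close to log2 signal minus each array's 75th percentile; its steps are not given in the sources used here, and it served as an alternative. From the processed signals, log2 values minus each array's 75th percentile were computed. Probes well above background on fewer than 2 of 12 arrays were left out, and the probe with the highest mean stood for a gene. One limma 3.58.1 fit (R 4.3.3) of 6 group means over all 12 arrays gave each comparison, on 6 residual degrees of freedom plus 1.87 from the prior. P-values were adjusted by Benjamini-Hochberg over 15217 genes. The fit was tested on simulated data with independent noise on each array, which does not cover samples that deviate together. The files hold no mean signal column, so normexp (offset 50) was run on the median signal. Alternatives also covered scaling, filter, probe choice, replicate block, samples fitted and each array left out. Genes named were all called members and, among uncalled members, the largest differences in each role. The members and lists were chosen with earlier results of these data known. Depth has no counterpart on arrays, where the number of arrays limits precision. Promoter windows were copied from RefSeq (GRCm38.p6), and protein and probe sequences were not used here.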

Additional observations from a re-analysis of the deposited data

Results flagged for a closer look

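The responses of glomeruli and cultures to tamoxifen differed for 2 members by the test of the difference itself (limma, adjusted over 15217 genes). For Wnt9a the glomerular response minus the mean culture response was -1.51 (adjusted p = 0.0190), with treated arrays above mock arrays in both sets of cultures and a glomerular difference of -0.13. For Fzd3 it was -1.08 (adjusted p = 0.0463), with treated arrays higher in both sets of cultures and lower in glomeruli. Tissue and slide cannot be told apart in these tests, although each response was measured within a slide.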

How the results depend on the processing

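With normexp, 16 members were called at day 4 (5053 genes in all), beside a lower-tail 5th percentile of -1.30 and -2.52 on the day 4 treated arrays against -3.71 to -2.98 on the others; the part of that tail was not tested. The difference between glomerular and culture responses then had 0 calls, against 1 with median scaling and 1 with no filter on dim probes. With no filter, day 7 had 2 calls, adding Fzd10. With only the arrays compared, day 4 and day 7 had 0 calls each. Leaving out each array in turn gave 0 to 1 calls in glomeruli, 0 to 1 at day 4, 0 to 5 at day 7 (5 without mock replicate 1: Sfrp1, Tcf7, Wnt4, Wnt9a and Wnt9b), 21 to 25 in mock cultures against glomeruli and 0 to 2 in the response difference. Median scaling turned the share of called genes that were higher from 66.7% to 77.8% in glomeruli, from 43.8% to 60.5% at day 4 and from 46.3% to 61.4% at day 7. Values that reversed were 0.156 for Fzd5 and 0.181 for Nkd2 at day 4 with normexp, and, over the arrays left out, Lef1 in glomeruli (-1.18 to 0.242), Axin2 at day 7 (-0.025 to 1.28) and Wnt9b at day 7 (-3.78 to 0.813). The causes were not tested. Same-numbered samples deviated together (correlations over genes of 0.21 in glomeruli, 0.511 at day 4 and 0.538 at day 7; 0.395 to 0.551 over all pairs of culture groups, across days too), but with 2 pairs a comparison the numbers were not taken as pairs. With the replicate block the response difference had 4 calls (Fzd2, Fzd3, Wnt4 and Wnt9a), and with a replicate block shared by all cultures, added after seeing the data, glomeruli had 3 (Frzb, Fzd2 and Wnt8b) and day 7 had 2 (Fzd3 and Wnt9a). A slide block is contained in the group means and could not be fitted apart from them. Of the 24 calls between mock cultures and glomeruli, 14 were kept in all fits and 10 were lost in at least 1. Signals near background limit Axin2, Sfrp1, Sfrp4, Sfrp5, Tcf7, Wnt6, Wnt7b, Wnt8b and Wnt9b, and in cultures Sfrp2 and Wif1.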
